A study of Mus musculus with 27 samples.

Results

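The 9 genes described here handle iron, bind metal or act for or against ferroptosis, and all 9 were found by symbol among the 19392 genes listed. They are the metallothioneins Mt1 and Mt2, the ferritin heavy chain gene Fth1, the transferrin receptor gene Tfrc, the iron exporter gene Slc40a1, the zinc and iron importer gene Slc39a14, the acyl-CoA synthetase gene Acsl4, and the glutathione peroxidase genes Gpx4 and Gpx3. RNA-Seq was done on the left kidney of each of 27 C57BL/6 mice, 3 at each of 9 ischemia times (0, 16, 18, 20, 22, 24, 26, 28 and 30 min), all taken after 24 h of reperfusion. The left renal pedicle was clamped for the given time with the mouse on a warm platform at 37 °C, and the right kidney was removed, also in the 0 min mice, which form the sham group. The labels give no sex, age or surgical batch. Each sample is kidney tissue with its cell types mixed. Per the paper, part of the left kidney was fixed for histology, and which part gave the RNA is not stated. Replicates were different mice, so p-values measure the spread between these mice, and comparisons with 0 min share the same 3 sham kidneys.

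Iron taken up by a cell through transferrin and its receptor, or by a metal importer, is stored in ferritin or leaves through the exporter ferroportin. Free ferrous iron drives the peroxidation of membrane lipids, and ferroptosis is the form of cell death that follows when this peroxidation is not held back. ACSL4 activates the long polyunsaturated fatty acids that become the oxidized lipids, and GPX4 reduces the lipid peroxides with glutathione. GPX3 is the secreted glutathione peroxidase of plasma, made mainly in the kidney tubule. Metallothioneins are small cysteine-rich proteins that bind zinc and copper, and their genes are switched on by the metal sensor MTF1, which binds metal response elements in their promoters.

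Fth1, Tfrc and Slc40a1 mRNAs carry iron-responsive elements, hairpins that bind iron regulatory proteins when iron is low. Such a hairpin before the coding sequence blocks translation, and such hairpins after it protect the mRNA. They are shown because the level of Tfrc mRNA, but not the translation of Fth1 or Slc40a1, can be read in RNA-Seq. A search for the motif CNNNNNCAGTGNNNNNN with 5 pairing stem bases (G-T pairs allowed) found at least 1 loop in 271 of 21877 genes (1.24%), taking the longest coding transcript of each. Tfrc was the 1 gene with at least 4 loops. In the lines that follow, the capitals mark the 6 bases of the loop, with coordinates on GRCm38.
Fth1, 5′ UTR, exon 1, chr19:9982738-9982754 (+): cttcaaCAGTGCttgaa
Slc40a1, 5′ UTR, exon 1, chr1:45925471-45925487 (-): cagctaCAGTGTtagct
Tfrc, 3′ UTR, exon 19, chr16:32631225-32631241 (+): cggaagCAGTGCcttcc
Tfrc, 3′ UTR, exon 19, chr16:32631604-32631620 (+): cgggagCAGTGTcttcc
Tfrc, 3′ UTR, exon 19, chr16:32631669-32631685 (+): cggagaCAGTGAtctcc
Tfrc, 3′ UTR, exon 19, chr16:32631716-32631732 (+): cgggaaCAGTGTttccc
The loop of the ferritin light chain gene Ftl1, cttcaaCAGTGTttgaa, lies in its 5′ UTR. These letters were not in the transcripts searched for Mt1, Mt2, Slc39a14, Gpx4, Gpx3 and Acsl4.

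Mt1 (chromosome 8, 94179082 to 94180327, plus strand) and Mt2 (94172664 to 94173568, plus strand) are neighbours with 5513 bases between them. Mt3 and Mt4 lie on the same side of Mt2, and the 4 genes span 43131 bases. Since Mt1 and Mt2 moved together, the 250 bases before their RefSeq starts (GRCm38.p6) are given. Capitals mark matches on either strand to TGCACNC or TGCGCNC, the core of the metal response element. The RefSeq starts differ from the gene starts above, and which start these kidneys used was not tested.
Mt1, chr8:94178839-94179088 (+): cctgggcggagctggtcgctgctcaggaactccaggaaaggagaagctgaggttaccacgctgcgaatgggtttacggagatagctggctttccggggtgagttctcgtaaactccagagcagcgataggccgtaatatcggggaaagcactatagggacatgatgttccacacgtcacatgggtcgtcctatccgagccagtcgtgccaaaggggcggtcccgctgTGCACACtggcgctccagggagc
Mt2, chr8:94172368-94172617 (+): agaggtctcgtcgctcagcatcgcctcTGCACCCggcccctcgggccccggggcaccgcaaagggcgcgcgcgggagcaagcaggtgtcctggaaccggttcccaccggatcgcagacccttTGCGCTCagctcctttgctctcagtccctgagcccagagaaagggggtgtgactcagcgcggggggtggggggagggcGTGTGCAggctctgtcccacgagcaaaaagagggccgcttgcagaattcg
With the 50 bases after the start included, the Mt1 window held 3 matches and the Mt2 window 4. Of these, 1 for Mt1 and 3 for Mt2 lay in the stretch printed. Of 32851 promoter windows of 300 bases, 25.7% held at least 1 match and 1.97% at least 3. Entries were found for 7 of the 9 genes, all but Slc39a14 and Slc40a1. The windows of Gpx4, Gpx3, Fth1 and Acsl4 held none of these letters, and 1 of the Tfrc windows held 2 overlapping matches.

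**Figure D1:**
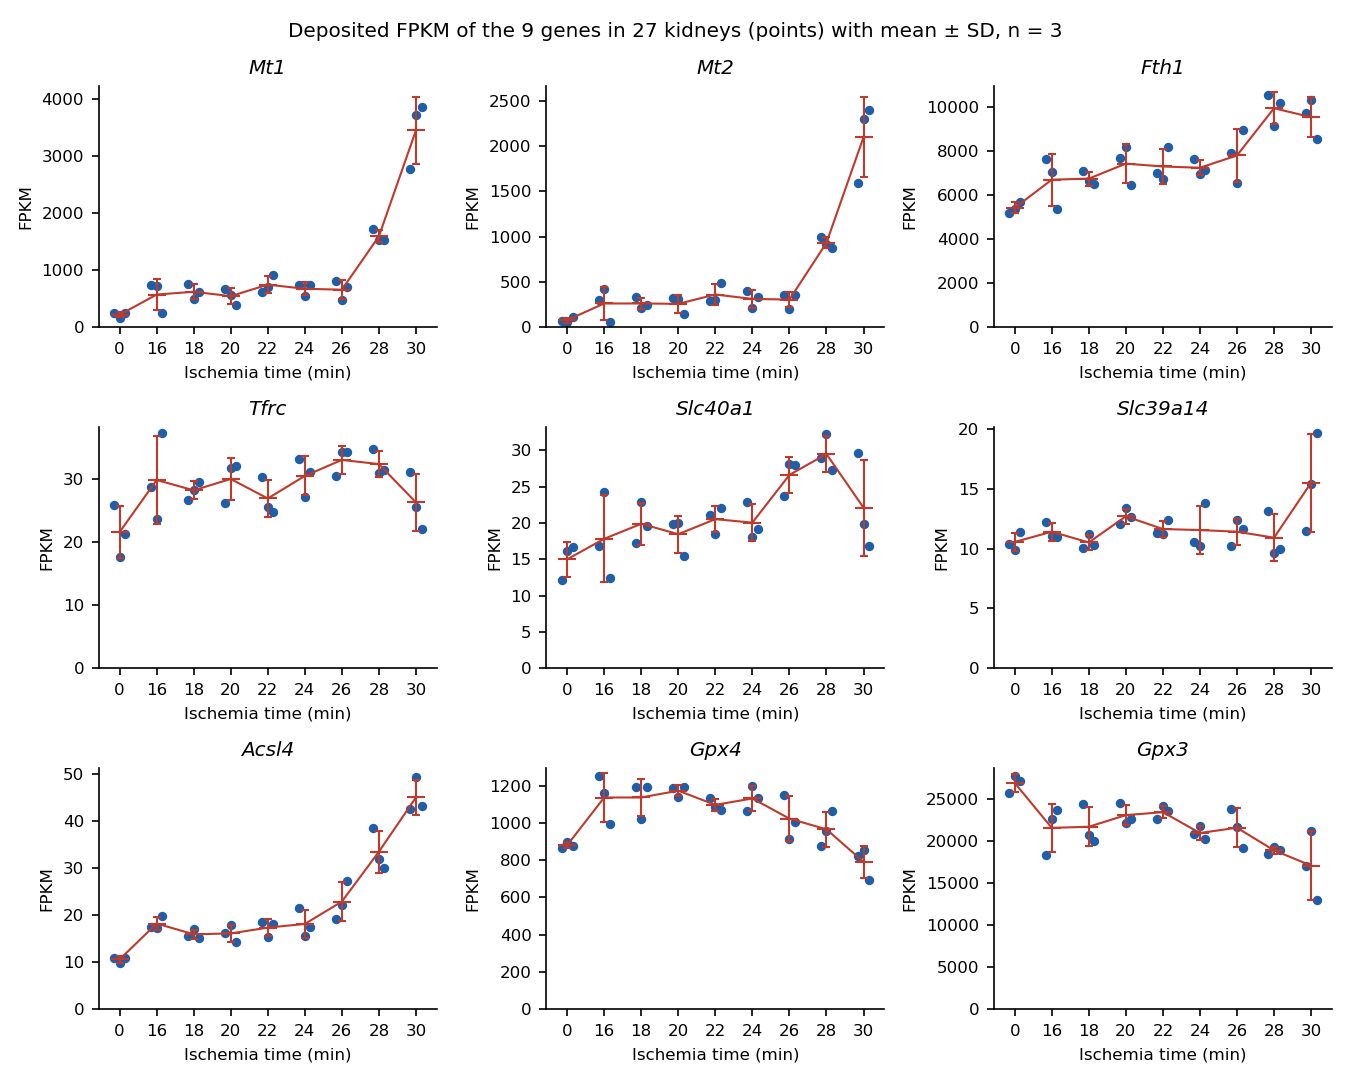
Deposited FPKM (y axis, from 0, a scale per gene) against ischemia time in minutes (x axis, equal steps per group) for the 9 genes, with 1 point per kidney and the mean ± SD of 3 kidneys in red. Mt1, Mt2 and Acsl4 are lowest at 0 min and highest at 30 min, Fth1 is highest at 28 min, and Gpx3 is highest at 0 min.

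The metallothioneins had the largest folds of the 9 genes. Mt1 stood at 245, 163 and 239 FPKM in the 3 sham kidneys, where FPKM stands for fragments per kilobase of transcript, corrected for library size. It was 747, 715 and 253 FPKM at 16 min, so 1 kidney of that group stood just above the sham range. From 18 to 26 min the 15 kidneys lay between 397 and 912 FPKM, with a median of 662. The 28 min kidneys had 1716, 1534 and 1535 FPKM, and the 30 min kidneys had 2785, 3726 and 3860 FPKM. The 0 min, 18 to 26 min, 28 min and 30 min ranges did not overlap, while the 6 group means from 16 to 26 min (543 to 746 FPKM) did not separate from their neighbours. The 30 min mean of 3457 ± 586 FPKM (SD, n = 3) was 16.0 times the 0 min mean of 216 ± 45.8 FPKM. In RNA of mixed kidney tissue, fewer cells of a type and less RNA per cell cannot be told apart, here and in what follows.

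Mt2 followed the same course from a lower start. Its sham values were 69.5, 54.0 and 107 FPKM, and its 16 min values were 297, 425 and 60.9 FPKM, the last within the sham range. From 18 to 26 min the kidneys lay between 144 and 493 FPKM. At 28 min Mt2 was at 998, 922 and 874 FPKM, and at 30 min at 1592, 2300 and 2405 FPKM, 27.3 times the 0 min mean. The group order was the same for both genes, 30 min first, then 28 min, then the 6 shorter times, whose ranges overlapped those of their neighbours, and 0 min last. Mt1 ranked 331 to 519 among all genes in the sham kidneys and 8 to 11 in the 30 min kidneys.

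limma was fitted to quantile normalized log2(FPKM + 1) over 18188 genes, and genes counted as DEGs when the log2 fold change exceeded 1 in size at a Benjamini-Hochberg adjusted p under 0.05. At 16 min, Mt1 was the 1 DEG among the 9 genes (log2 fold change 1.29, SE 0.32, adjusted p = 0.0086), where 1.28% of all genes were higher DEGs. That call was lost without sham kidney 2 or without 16 min kidney 1 or 2, at log2 changes of 1.01 to 1.11, and in a fit of only the 2 groups compared (adjusted p = 0.21). Mt2 had a log2 fold change of 1.37 at 16 min (SE 0.49, adjusted p = 0.056), and it reached 2.19 and passed the test without the 16 min kidney at 60.9 FPKM. At each time from 18 to 26 min both genes were DEGs, with log2 fold changes of 1.34 to 1.79 for Mt1 and 1.64 to 2.16 for Mt2. Mt2 lost its call at 18 min without sham kidney 2 or 18 min kidney 1, and at 20 min without sham kidney 1 or 2 or 20 min kidney 1 or 2, or in a fit of only the groups compared. Higher DEGs made up 1.97%, 1.55%, 2.09%, 1.97% and 2.16% of all genes at these 5 times in turn.

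At 28 min the log2 fold change against 0 min was 2.99 (SE 0.32, adjusted p = 3.4e-07) for Mt1 and 3.52 (SE 0.49, adjusted p = 6.5e-06) for Mt2. At 30 min it was 3.58 (adjusted p = 1.7e-08) and 4.40 (adjusted p = 2.6e-07). Both genes also rose between 26 and 28 min, by 1.34 for Mt1 (adjusted p = 0.0066) and 1.58 for Mt2 (adjusted p = 0.029), the 2 DEGs among the 9 genes in a comparison with 0.440% of all genes as higher DEGs. For Mt2 this call was lost without 26 min kidney 1 or 2, or without any 1 of the 28 min kidneys. From 28 to 30 min the log2 change was 0.60 for Mt1 (adjusted p = 0.25) and 0.88 for Mt2 (adjusted p = 0.27). Here 0 of the 9 genes were DEGs, against 0.401% of all genes called higher. Without quantile normalization Mt1 changed by 1.10 (adjusted p = 0.028) and became a DEG, since quantile normalization sets a value by its rank and gives rank 8 a value of 3012 FPKM and rank 10 a value of 2421 FPKM in every kidney.

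**Figure D2:**
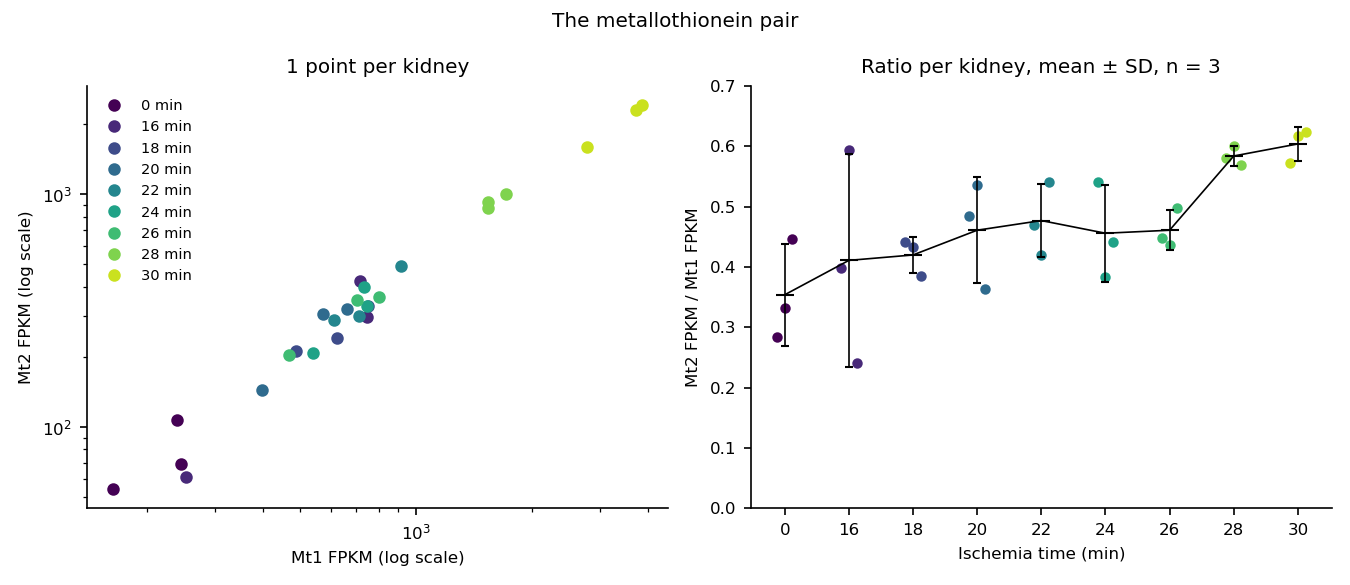
Left, Mt2 against Mt1 FPKM in the 27 kidneys, both axes on a log scale, coloured by ischemia time. Right, the Mt2 to Mt1 ratio per kidney (points) with mean ± SD (n = 3), from 0.354 at 0 min to 0.604 at 30 min.

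Relative to Mt1, Mt2 was also higher in the 28 and 30 min kidneys than in the sham kidneys. The ratio of Mt2 to Mt1 FPKM was 0.354 ± 0.0842 (SD, n = 3) at 0 min, with a range of 0.283 to 0.447. It was 0.584 ± 0.0159 at 28 min and 0.604 ± 0.0282 at 30 min, and these ranges lay above the sham range (exact permutation test, two-sided, p = 0.1, the smallest that 3 against 3 allows). In the 18 kidneys from 16 to 26 min the ratio ran from 0.241 to 0.594, and both ends belonged to 16 min kidneys. Over the 9 group means, the gene whose log2 level was most like Mt1 among 12346 genes was Mt2 (Pearson r = 0.9979), followed by the keratin gene Krt8 (0.9969) and the receptor activity-modifying protein gene Ramp2 (0.9967). The 9 means come from the same 27 libraries, so these are descriptions and carry no p.

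Acsl4 (chromosome X, 142317993 to 142390535, minus strand) passed the test against 0 min at each of the 8 ischemia times. The sham kidneys had 10.9, 9.78 and 10.9 FPKM, and the 16 min kidneys had 17.5, 17.3 and 19.7 FPKM. From 18 to 24 min the 12 kidneys lay between 14.2 and 21.4 FPKM. The values were 19.1, 22.1 and 27.2 FPKM at 26 min, 38.5, 31.8 and 29.95 FPKM at 28 min, and 42.5, 49.2 and 43.2 FPKM at 30 min. Every ischemic kidney was above every sham kidney, and the 26, 28 and 30 min ranges were separate from each other. The 30 min mean was 4.27 times the 0 min mean. The call at 16 min was lost in a fit of only the groups compared (adjusted p = 0.073). The 18 min call was lost without sham kidney 2 (log2 change 0.41), and the 20 min call without 20 min kidney 2 (0.40).

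The log2 fold change of Acsl4 against 0 min was 0.64 at 16 min (SE 0.13, adjusted p = 0.0016), between 0.45 and 0.60 from 18 to 24 min, and 0.93 at 26 min (adjusted p = 3.3e-05). It was a DEG at 28 min (1.43, adjusted p = 3.2e-08) and at 30 min (1.94, adjusted p = 2.7e-10). At 26 min it became a DEG as well without quantile normalization (1.03), with values rescaled to a constant sum (1.09) or without 26 min kidney 1. It also rose by 0.50 from 26 to 28 min (adjusted p = 0.0084) and by 0.51 from 28 to 30 min (adjusted p = 0.012). The first of these steps was lost without 26 min kidney 1 or 28 min kidney 1, and the second without 28 min kidney 2 or 3 or 30 min kidney 2. In a fit of only the groups compared both steps were lost (adjusted p = 0.092 and 0.11). With Mt1 and Mt2 this made 3 of the 9 genes higher DEGs at 28 min, against 4.27% of all genes, and 3 of 9 at 30 min, against 5.14%. Of the 9 genes 0 were lower DEGs, against 4.21% of all genes at 28 min and 5.59% at 30 min. The genes most like Acsl4 over the 9 means were Septin7 (r = 0.9968), Morf4l2 (0.9932) and the transcription factor gene Sox9 (0.9932), which is also on the injured tubule list given with the marker values.

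**Figure D3:**
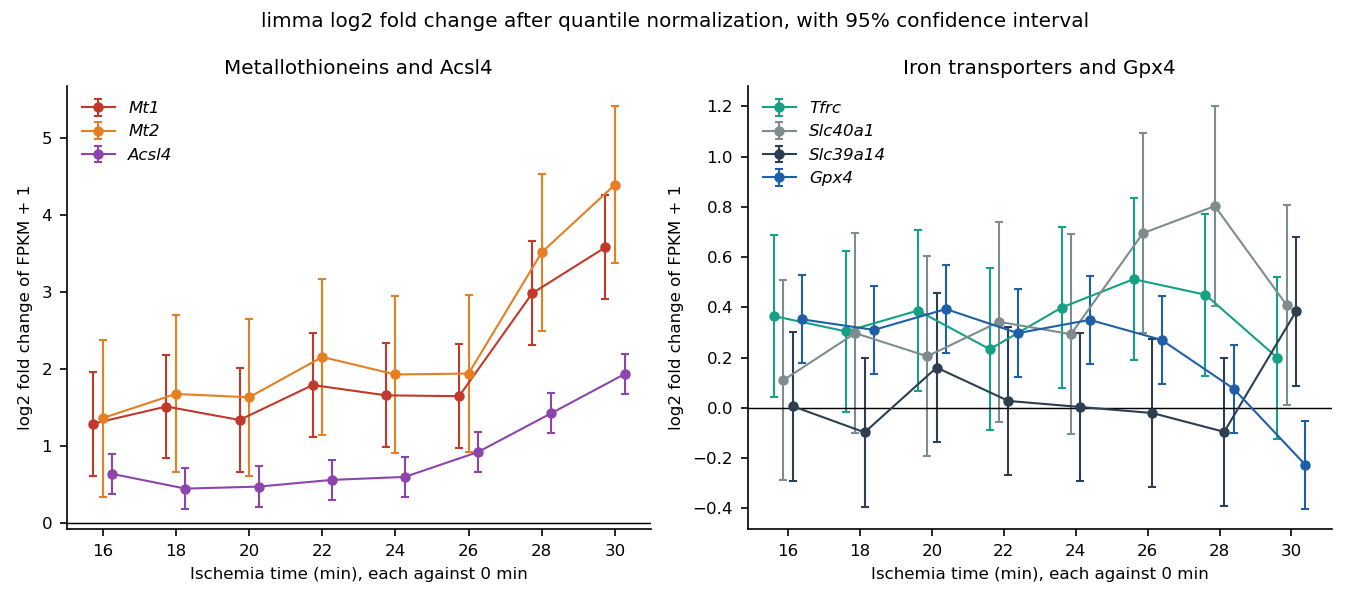
limma log2 fold change of quantile normalized FPKM + 1 against 0 min (y axis, a scale per panel) by ischemia time (x axis), with 95% confidence intervals. On the left Acsl4 runs from 0.64 at 16 min to 1.94 at 30 min below Mt1 and Mt2, and on the right Gpx4 goes from 0.35 at 16 min to -0.23 at 30 min.

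Gpx4 (chromosome 10, 80047166 to 80056439, plus strand), the peroxidase that reduces lipid peroxides in membranes, went up at shorter ischemia times and was lowest at 30 min. It stood at 868, 899 and 875 FPKM in the sham kidneys and at 1254, 1160 and 997 FPKM at 16 min. From 18 to 24 min the 12 kidneys lay between 1024 and 1199.59 FPKM. At 26 min they had 1152, 913 and 1006 FPKM, at 28 min 879, 955 and 1065 FPKM, and at 30 min 822, 856 and 696 FPKM. All 18 kidneys from 16 to 26 min were above the sham kidneys, the 28 min range overlapped the sham range, and the 30 min range lay below it.

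Gpx4 was higher than at 0 min by 0.35 on the log2 scale at 16 min (SE 0.08, adjusted p = 0.0064), by 0.39 at 20 min (adjusted p = 0.0024) and by 0.27 at 26 min (adjusted p = 0.019). The 26 min difference was 0.21 without quantile normalization (adjusted p = 0.10). Its call was also lost without sham kidney 3 or 26 min kidney 1 (0.20 to 0.24). The 18 min call (0.31, limma adjusted p = 0.0093) was lost without 18 min kidney 3 (0.26). In a fit of only the groups compared the calls at 16 and 26 min were lost (adjusted p = 0.079 and 0.062). At 28 min the change was 0.08 (95% confidence interval -0.10 to 0.25, adjusted p = 0.50). At 30 min Gpx4 was at -0.23 (SE 0.08, adjusted p = 0.028), a call that was lost without sham kidney 1 or 2 or 30 min kidney 1 or 3, without quantile normalization (-0.16, adjusted p = 0.17), with values rescaled to a constant sum (-0.16, adjusted p = 0.10), with an eBayes trend and in a fit of only the groups compared. From 28 to 30 min it fell by 0.30 (adjusted p = 0.022). That step was lost without 28 min kidney 2 or 3 or 30 min kidney 1 or 3, and in a fit of only the groups compared (adjusted p = 0.20). The genes most like Gpx4 over the 9 means were Tkfc (r = 0.9912), Miga2 (0.9863) and Sccpdh (0.9823).

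Fth1 (chromosome 19, 9980598 to 9985098, plus strand) ranked 3 or 4 among all genes in every kidney. The sham kidneys had 5205, 5375 and 5707 FPKM. The 16 min kidneys had 7669, 7066 and 5397 FPKM, the last within the sham range, and the 15 kidneys from 18 to 26 min lay between 6449 and 8965 FPKM, above it. The 28 min kidneys had 10552.5, 9139 and 10203 FPKM, and the 30 min kidneys had 9766, 10356 and 8554 FPKM. The 28 min mean of 9965 ± 736 FPKM (SD, n = 3) was 1.83 times the 0 min mean of 5429 ± 255 FPKM, and Fth1 went from 1.01% to 1.83% of the summed FPKM of a kidney.

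Gpx3 (chromosome 11, 54902453 to 54910377, plus strand) ranked 1 or 2 in every kidney and moved the other way. It stood at 25809, 27813 and 27234 FPKM at 0 min, and the 18 kidneys from 16 to 26 min lay between 18381 and 24503 FPKM. The 28 min kidneys had 18487, 19353 and 18913 FPKM, and the 30 min kidneys had 17085, 21208 and 13015 FPKM. Every ischemic kidney was below every sham kidney. The 30 min mean of 17103 ± 4100 FPKM was 0.635 times the 0 min mean of 26952 ± 1030 FPKM, and the share of summed FPKM went from 5.01% to 3.17%.

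These changes did not appear in the quantile normalized fit, which gives each rank 1 fixed value, 24390 FPKM for rank 1, 18210 for rank 2, 8383 for rank 3 and 6576 for rank 4. In that fit Fth1 had a log2 change of 0.00 at 28 min and -0.12 at 30 min (adjusted p = 0.45), and Gpx3 had 0.28 at 28 min (adjusted p = 0.11) and 0.14 at 30 min (adjusted p = 0.45). Without quantile normalization Fth1 rose by 0.87 at 28 min (SE 0.12, adjusted p = 7.5e-06) and by 0.81 at 30 min (adjusted p = 1.4e-05), and Gpx3 fell by 0.51 at 28 min (SE 0.12, adjusted p = 0.0019) and by 0.68 at 30 min (adjusted p = 0.0001). With each kidney rescaled to a constant sum, the values were 0.86 and 0.81 for Fth1 and -0.53 and -0.68 for Gpx3, all 4 with limma adjusted p at or under 0.0013. In the quantile normalized fit Fth1 was called at 22 and 26 min (-0.35) and Gpx3 at 22, 24 and 26 min (0.42), in the direction opposite to that of their FPKM. Each of these 5 calls was lost without any 1 of the kidneys compared and with an eBayes trend.

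**Figure D4:**
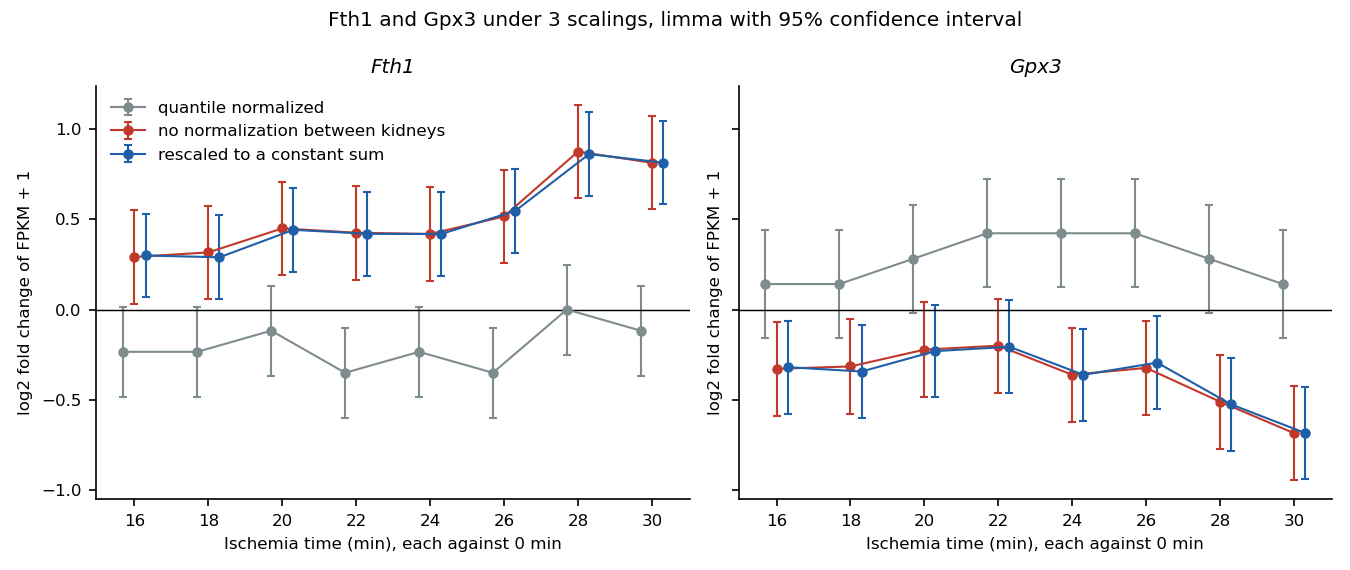
limma log2 fold change of FPKM + 1 against 0 min for Fth1 (left) and Gpx3 (right) by ischemia time, with 95% confidence intervals, after quantile normalization (grey), without normalization between kidneys (red) and after rescaling to a constant sum (blue). At 30 min Fth1 is at 0.81 in both of the latter and at -0.12 after quantile normalization, and Gpx3 is at -0.68 and 0.14.

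The light chain gene Ftl1 was affected by rank in the same way. Its mean was 3711 ± 416 FPKM at 0 min, 7741 ± 658 FPKM at 28 min and 5976 ± 1450 FPKM at 30 min, and its log2 change at 30 min was -0.38 after quantile normalization (adjusted p = 0.078) and 0.66 without it (adjusted p = 0.00068). The ratio of Fth1 to Ftl1 FPKM was 1.47 ± 0.10 (SD, n = 3) in the sham kidneys and 1.72 ± 0.0895 at 20 min, and it was 1.29 ± 0.0892 at 28 min and 1.65 ± 0.297 at 30 min. Its 20 min range lay above the sham range (exact permutation test, two-sided, p = 0.1, the smallest possible), and the other 7 times had exact p from 0.2 to 1. The ratio of Gpx3 to Gpx1, the cytosolic peroxidase gene, was 18.2 ± 0.693 at 0 min and 25.3 ± 3.64 at 30 min, with separate ranges (exact p = 0.1), and its ranges at 20, 22 and 28 min also lay above the sham range. Fth1 and Gpx4 have processed copies elsewhere in the genome, and Mt1 and Mt2 resemble each other, so how the counting shared reads among copies could not be checked from FPKM.

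Slc40a1 (chromosome 1, 45908068 to 45926523, minus strand) encodes ferroportin, the known iron exporter of animal cells. It stood at 12.2, 16.1 and 16.7 FPKM in the sham kidneys and at 16.8, 24.3 and 12.4 FPKM at 16 min. From 18 to 24 min it lay between 15.5 and 22.9 FPKM. The values were 23.7, 28.2 and 28.0 FPKM at 26 min and 29.0, 32.2 and 27.3 FPKM at 28 min, all 6 above every sham kidney, and 29.6, 19.9 and 16.9 FPKM at 30 min. The log2 fold change was 0.69 at 26 min (SE 0.19, adjusted p = 0.0091) and 0.80 at 28 min (adjusted p = 0.0016). The 26 min call was lost without sham kidney 1 (0.57). At 30 min the change was 0.41 (adjusted p = 0.081), and without quantile normalization 0.51 (adjusted p = 0.038). The step from 28 to 30 min was -0.40 (95% confidence interval -0.79 to 0.003, adjusted p = 0.19), so a lower level at 30 than at 28 min was not shown.

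Tfrc (chromosome 16, 32608920 to 32632794, plus strand), the receptor that brings transferrin-bound iron into the cell, changed less. It was at 25.8, 17.7 and 21.2 FPKM at 0 min and at 28.7, 23.6 and 37.3 FPKM at 16 min. The 12 kidneys from 18 to 24 min lay between 24.8 and 33.2 FPKM. The 26 min kidneys had 30.5, 34.3 and 34.3 FPKM and the 28 min kidneys had 34.8, 30.9 and 31.4 FPKM, above the sham range, while the 30 min kidneys had 31.1, 25.6 and 22.1 FPKM and overlapped it. The log2 fold change was 0.51 at 26 min (SE 0.15, adjusted p = 0.016) and 0.45 at 28 min (adjusted p = 0.02), and both calls were lost without sham kidney 2 (0.39 and 0.33). The 26 min call was also lost without 26 min kidney 2, and the 28 min call without sham kidney 3 or 28 min kidney 1. In a fit of only the groups compared the adjusted p was 0.061 at 26 min and 0.054 at 28 min. At 16 min it was 0.37 (adjusted p = 0.11) and without quantile normalization 0.44 (adjusted p = 0.038).

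Slc39a14 (chromosome 14, 70303469 to 70351425, minus strand), which imports zinc and iron not bound to transferrin, stood between 9.63 and 13.9 FPKM in the 24 kidneys from 0 to 28 min. At 30 min it had 11.5, 15.4 and 19.7 FPKM, with the lowest of the 3 just above the sham range of 9.92 to 11.4 FPKM. The log2 fold change was 0.38 at 30 min (SE 0.14, adjusted p = 0.028) against 0 min and 0.48 against 28 min (adjusted p = 0.03). The first call was lost without sham kidney 1 or 2 or 30 min kidney 2 or 3 (0.21 to 0.38), and the second without 28 min kidney 2 or 3 or 30 min kidney 2 or 3 (0.30 to 0.47). A fit of only the groups compared lost both (adjusted p = 0.18 and 0.28). From 16 to 28 min its changes against 0 min lay between -0.10 and 0.16, with 95% confidence intervals within -0.39 and 0.46.

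In the counts, 3 of the 9 genes had an adjusted p under 0.05 at 16 min (Mt1, Acsl4 and Gpx4), where 19.0% of all genes did. At 28 min 5 of 9 did (48.2% of all genes), and at 30 min 5 of 9 did (52.3% of all genes). Between 26 and 28 min it was 4 of 9 (19.3% of all genes), Fth1 included with a log2 change of 0.35 and an adjusted p of 0.045, a call lost without any 1 of the 6 kidneys and under 4 other settings. Between 28 and 30 min 3 of 9 (13.2% of all genes). Between 16 and 26 min 0 of 9 genes were DEGs in limma, and 0 of all genes, although 1717 genes had an unadjusted p under 0.05.

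Among ischemic kidneys alone, the slope over the 8 group means from 16 to 30 min was positive for Mt2 (0.185 log2 units per minute, SE 0.027, adjusted p = 9e-06), Mt1 (0.144, adjusted p = 1.3e-06), Acsl4 (0.091, adjusted p = 2.4e-09) and Slc40a1 (0.036, adjusted p = 0.0073). It was negative for Gpx4 (-0.033, SE 0.005, adjusted p = 5.8e-06). These 5 of 9 genes compare with 46.9% of all genes. Such a slope does not show an even change per minute. Between 16 and 26 min none of the 5 passed in limma. The changes were 0.355 for Mt1 (adjusted p = 0.79), 0.578 for Mt2 (0.77), 0.285 for Acsl4 (0.5), 0.585 for Slc40a1 (0.41) and -0.082 for Gpx4 (0.83). The slopes of Tfrc (0.001, adjusted p = 0.96) and Slc39a14 (0.012, adjusted p = 0.21) did not pass. Fth1 and Gpx3 did not pass after quantile normalization (0.008 and 0.007), and passed without it, at 0.039 (adjusted p = 6.7e-05) and -0.023 (adjusted p = 0.0076) log2 units per minute. In limma's F-test over the 9 times the same 5 genes passed, against 55.1% of all genes, and without quantile normalization 8 of 9 did, all but Slc39a14. Over all genes, 10026 passed in the fit reported and 9138 to 9996 under the other settings, which did not all test the same genes.

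The lists of other genes in these pathways held 92 genes, of which 87 were tested. Of all genes, 4.27% were higher and 4.21% lower DEGs at 28 min, and 5.14% were higher and 5.59% lower at 30 min. The list counts are descriptions beside these shares. In the metallothionein and zinc list, 3 of 11 tested genes were higher DEGs at 30 min and 1 was a lower DEG. The third member of the metallothionein cluster, Mt3, went from 1.05 ± 0.463 to 6.33 ± 3.53 FPKM (adjusted p = 0.0007 for a log2 fold change of 1.62), and Mt4 was listed at 0 in the sham and 30 min kidneys. Slc39a5, a zinc importer, was at 19.2 FPKM at 0 min and 43.8 FPKM at 16 min, a higher DEG (1.07, adjusted p = 0.0012), then at 5.90 FPKM at 30 min, a lower DEG (-1.65, adjusted p = 9.3e-07). Mtf1 itself rose by 0.34 at 30 min (adjusted p = 0.00012).

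In the iron uptake and transport list, 1 of 13 tested genes was a higher and 1 a lower DEG at 30 min (5.14% and 5.59% of all genes). Slc39a8, the closest relative of Slc39a14, was a lower DEG at each time from 18 to 30 min and had a log2 fold change of -0.92 at 16 min (adjusted p = 0.0042). Its sham mean of 35.6 ± 3.63 FPKM compares with 16.7 ± 3.86 FPKM at 18 min, 6.41 ± 0.435 at 28 min and 5.27 ± 0.307 at 30 min (30 min log2 fold change -2.64, adjusted p = 2.7e-09). Without quantile normalization its changes at 20 and 24 min were -0.94 and -0.96, short of a DEG. Meltf, for melanotransferrin, was the higher DEG at 30 min, with a mean of 1.12 FPKM. The iron storage list had 0 DEGs among 5 tested genes at 28 and 30 min, and without quantile normalization Ftl1 was a DEG at 28 min (1.06, adjusted p = 5.3e-06). The iron regulation list had 0 among 8, with 2 genes higher and 3 lower by adjusted p alone at 28 min and 3 each at 30 min. The hepcidin genes Hamp and Hamp2 were listed at 0 in the sham and 30 min kidneys.

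Heme breakdown releases iron, and 3 of 11 tested genes of that list were higher DEGs at 28 min (4.27% of all genes), with 0 lower (4.21%). Hmox1, for heme oxygenase 1, went from 28.3 ± 8.78 FPKM at 0 min to 63.1 ± 23.0 at 16 min, 297 ± 43.2 at 28 min and 232.5 ± 27 at 30 min (log2 fold changes 1.03, 3.30 and 3.07, with adjusted p at 30 min of 3.3e-08). The biliverdin reductase genes Blvra and Blvrb reached 98.9 and 51.4 FPKM at 28 min from 44.7 and 19.0 FPKM at 0 min. The heme exporter gene Flvcr1 was a higher DEG at 30 min (1.21, adjusted p = 0.00024). The median log2 change of the list was 0.35 at 28 min and 0.76 at 30 min, against 0.00 over all genes at both.

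Of the 8 glutathione peroxidase genes, 2 were lower DEGs at 28 and 30 min (4.21% and 5.59% of all genes) and 0 were higher (4.27% and 5.14%). Without quantile normalization Gpx1 was at -0.83 at 28 min, short of a DEG, and Gpx7, which lies in the endoplasmic reticulum, became a higher DEG at 28 and 30 min (1.13 and 1.08). Gpx1 went from 1484 ± 110 FPKM at 0 min to 669 ± 77.3 at 30 min (log2 fold change -1.29, adjusted p = 5.5e-10), and Gpx6 from 59.5 ± 3.02 to 9.08 ± 6.00 FPKM. In the ferroptosis defence list, 0 of 15 tested genes were lower DEGs at 30 min (5.59% of all genes) and 4 were higher (5.14%). These were Txnrd1 (thioredoxin reductase 1, 1.54), Gch1 (the first enzyme of tetrahydrobiopterin synthesis, 1.34), Nqo1 (a quinone reductase, 1.07) and Mboat1 (a phospholipid acyltransferase, 1.01). By adjusted p alone, 9 of the 15 were higher and 2 lower at 30 min, where 52.3% of all genes were called in either direction. The cystine transporter gene Slc7a11 had low values, 0.0300 ± 0.0200 FPKM at 0 min and 0.733 ± 0.0351 FPKM at 30 min (log2 fold change 0.74, adjusted p = 3.6e-11).

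Among 13 lipid and oxidase genes of ferroptosis, Acsl4 and Chac1, which breaks down glutathione, were higher DEGs at 28 and 30 min. Nox4, an NADPH oxidase of the kidney tubule, was a lower DEG at 30 min (-1.11, adjusted p = 0.0019). Of the 5 long-chain acyl-CoA synthetase genes, Acsl4 was the 1 higher DEG, and Acsl1, which feeds fatty acids to oxidation and storage, was a lower DEG at each time from 18 to 28 min (-1.09 to -1.44). It was at 45.2 ± 5.31 FPKM at 18 min, 35.8 ± 1.89 at 24 min and 42.2 ± 4.54 at 28 min, against 95.1 ± 4.67 FPKM at 0 min (28 min log2 fold change -1.21, adjusted p = 7.2e-05). At 16 and 30 min Acsl1 was at 56.9 ± 28.4 and 61.9 ± 9.92 FPKM, lower by adjusted p (0.0072 and 0.019) but short of a DEG.

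**Figure D5:**
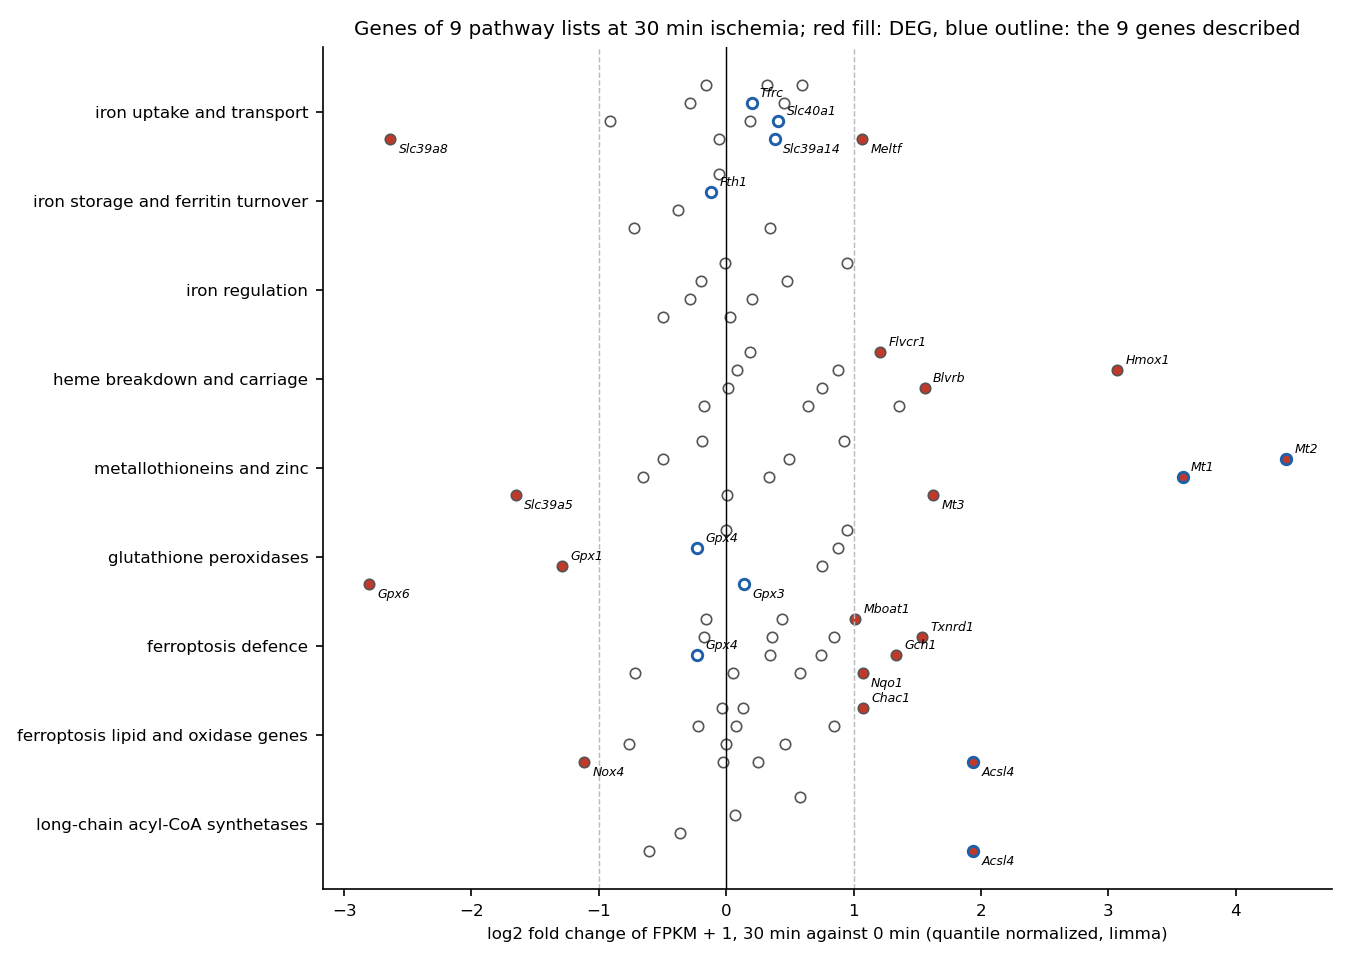
limma log2 fold change of quantile normalized FPKM + 1 at 30 min against 0 min (x axis) for each tested gene of 9 pathway lists (rows, with points spread vertically for legibility), with DEGs filled red, the 9 genes outlined blue and dashed lines at -1 and 1. Mt2 (4.40), Mt1 (3.58), Hmox1 (3.07) and Acsl4 (1.94) lie farthest right, and Gpx6 (-2.81) and Slc39a8 (-2.64) farthest left.

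Markers of cell types moved with ischemia time. Of all genes, 4.27% were higher and 4.21% lower DEGs at 28 min, and 5.14% and 5.59% at 30 min. The 6 proximal tubule markers summed to 2678 to 3028 FPKM in the sham kidneys, 1119 to 1238 at 28 min and 656 to 777 at 30 min, with 5 of 6 lower DEGs at 30 min. The 3 thick ascending limb markers were lower DEGs at 28 and 30 min. They summed to 1817 to 2104 FPKM at 0 min and 521 to 781 FPKM at 28 min. At 30 min the sums were 507, 504 and 2190 FPKM, so 1 kidney stood above the sham range. The 4 injured tubule markers, all higher DEGs at 16, 28 and 30 min, summed to 12.4 to 86.9 FPKM at 0 min and 2508 to 4911 at 30 min. In 16 min kidney 3, the one near the sham range for Mt1, Mt2, Fth1 and Slc40a1, they summed to 68.9 FPKM, against 726 and 1004 FPKM in the other kidneys of that group. Yet in that kidney Acsl4 (19.7 FPKM), Tfrc (37.3 FPKM) and Gpx4 (997 FPKM) stood above every sham kidney. Its Gpx3 (23743 FPKM) stood below every sham kidney, and its Slc39a14 (10.95 FPKM) within the sham range. Its dividing cell markers summed to 22.5 FPKM, against 1.90 to 3.56 FPKM at 0 min. The 6 erythroid markers summed to 123 to 645 FPKM at 0 min and 796 to 1470 at 30 min, with 5 higher DEGs, and the 6 neutrophil markers to 5.49 to 11.8 and 22.7 to 30.5 FPKM, with 2. The 4 dividing cell markers were highest between 16 and 26 min, at means of 23.2 to 32.2 FPKM, and at 2.82 FPKM at 0 min and 6.95 FPKM at 30 min. Of 7 macrophage markers 2 were higher and 1 lower at 30 min, 0 of 3 endothelial markers were DEGs, and 1 of 4 hepatocyte markers was lower. The hepatocyte markers summed to 184 to 234 FPKM at 0 min and 42.8 to 54.1 FPKM at 30 min. At 28 min they summed to 44.7 to 62.9 FPKM, with 2 lower DEGs. No listed marker was at 0 in all 3 kidneys of any group. The part of these shifts in the levels of the 9 genes was not tested.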

How the data were processed

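Per the submitters' processing notes, the files were made with Bowtie2, RSEM and DESeq2 on GRCm38.p6, and the annotation is not given in the sources used here. The authors deposited linear FPKM per gene symbol and kidney with 2 decimals. Read counts were not used here, so absolute depth is unknown, and precision rests on 3 kidneys a group. A relative depth, estimated from the low values of 39 to 65 genes per kidney, ran from 0.945 to 1.05. It was 0.945 to 0.973 in the sham kidneys and 1.04 to 1.05 at 28 min, and its effect on the levels was not tested. FPKM summed to 512453 to 554036 per kidney.

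After adding 1 FPKM and taking log2, values of the 27 kidneys were quantile normalized. limma 3.58.1 (R 4.3.3) estimated a mean for each ischemia time. A gene was tested if 3 or more kidneys had it above 0 FPKM, which left 18188 genes. Fold changes are therefore on the log2(FPKM + 1) scale, which understates low genes. The slope is a linear contrast in minutes. Groups follow the ischemia times in the sample titles. Ratios were compared by exact permutation tests. Analysis steps were tested on simulated data. The 9 genes, the lists and the markers were chosen with earlier results of these data known, so their counts are descriptions. Outside the 9, named genes are list genes that were DEGs at 16, 28 or 30 min (at most 6 a list), markers, and the 3 genes with the highest correlation. Ftl1, Gpx7, Mtf1, Mt4, Hamp, Hamp2 and Slc7a11 were named after their values were seen. Gene positions and transcripts are from GENCODE and promoters from RefSeq, both on GRCm38. Alternatives were another pseudocount, filter, scaling, eBayes trend, a fit of the compared groups, a replicate block and leaving out each kidney.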

Additional observations from a re-analysis of the deposited data

How the results depend on the processing

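Most single values kept their direction and their side of the threshold of 0.05, in 772 cases under the other settings and 691 when 1 kidney was left out. Under the other settings 39 cases reversed direction, 26 lost their call and 18 gained a call. With 1 kidney left out, 23 reversed, 82 lost their call and 14 gained a call. Absolute depth is unknown, so what it limits could not be stated. No normalization between kidneys and a constant sum, in this order, turned the direction of values set by the top ranks. For Fth1 the log2 changes against 0 min became 0.29 and 0.30 at 16 min, 0.32 and 0.29 at 18 min, 0.45 and 0.44 at 20 min, 0.43 and 0.42 at 22 min, 0.42 and 0.42 at 24 min, 0.52 and 0.55 at 26 min, and 0.81 and 0.81 at 30 min, and 0.22 and 0.25 for 26 against 16 min. For Gpx3 they became -0.33 and -0.32, -0.32 and -0.34, -0.22 and -0.23, -0.20 and -0.21, -0.36 and -0.36, -0.32 and -0.29, -0.51 and -0.53, and -0.68 and -0.68 from 16 to 30 min, with a slope of -0.023 per minute under both. Uncalled Slc39a14 values turned to 0.10 and 0.13 at 26 min, 0.034 and 0.021 at 28 min, and, with a constant sum, 0.019 for 26 against 16 min.

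Leaving out 1 kidney turned the direction only of values that had not passed the test. From the lowest to the highest, the 26 against 16 min change was -0.16 to 0.64 for Mt1, -0.24 to 1.12 for Mt2, -0.019 to 0.34 for Tfrc and -0.089 to 0.045 for Slc39a14. The Tfrc slope was -0.006 to 0.009 per minute, Slc40a1 at 16 min was -0.11 to 0.31, and Gpx4 at 28 min was -0.003 to 0.17. Slc39a14 was -0.035 to 0.046 at 16 min, -0.011 to 0.066 at 22 min, -0.13 to 0.073 at 24 min, -0.082 to 0.051 at 26 min, and -0.209 to 0.014 for 28 against 26 min.

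The members called DEG at 16 min numbered 2 without quantile normalization, with a constant sum or with a minimum of 1 FPKM, and 0 in a fit of the compared groups, which has fewer samples and which called 1 at 20 min. That fit also lost Acsl4 and Gpx4 at 16 min, Gpx4 and Tfrc at 26 min, Tfrc at 28 min, Gpx4 and Slc39a14 at 30 min, Acsl4 between 26 and 28 min, and Acsl4, Gpx4 and Slc39a14 between 28 and 30 min. Without quantile normalization or with a constant sum 3 were called at 26 min, Acsl4 included. Between 28 and 30 min 1 was called without quantile normalization or with a constant sum. Genes differing over the 9 times numbered 8 under both. With 1 kidney left out, DEGs numbered 0 to 2 at 16 min, 1 to 2 at 18 min, 1 to 2 at 20 min and 1 to 2 for 28 against 26 min. Over all genes, DEGs ranged from 8 to 795 at 16 min (410 in the fit reported) and from 0 to 425 between 28 and 30 min (191). The cause of these ranges was not tested.

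Deviations from the group means had a median correlation of -0.009 over 108 pairs of same-numbered kidneys, from -0.42 to 0.48. It was -0.010 over 216 pairs with other numbers, from -0.52 to 0.52. The labels do not say what the numbers mean. A median cannot exclude an effect shared by some kidneys or genes, so whether the numbers pair the mice stays unknown. With a replicate block the DEGs among the 9 genes numbered 1 at 16 min, 2 at each time from 18 to 26 min, 3 at 28 and 30 min and 2 for 28 against 26 min, and Fth1 lost its call for 28 against 26 min, as it did with a pseudocount of 0.1 FPKM, a constant sum, an eBayes trend or any 1 of the 6 kidneys left out.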
